A study of Rattus with 18 samples.

Results

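The genes described here encode the nuclear subunits of oxidative phosphorylation, read in rat glomeruli after saline and on 5 successive days after the anti-Thy1 antibody. They were chosen by name: every non-control row of the arrays whose gene name begins with Nduf and the letter a, b, c, s or v, with Uqcr, with Atp5, or with Cox and a digit from 4 to 8, or is Sdha, Sdhb, Sdhc or Sdhd. The rule found 108 probes for 89 of the 35071 genes and transcripts on the array, and 85 of these were among the 23199 that passed the filter on dim probes. Of the 85, 72 encode subunits of the complexes: 34 of complex I, 4 of complex II, 6 of complex III, 13 of complex IV and 15 of complex V. They are called core subunits here in a wide sense that includes supernumerary and accessory subunits and tissue isoforms. The other 13 are 6 complex I assembly factors (Ndufaf genes) and 7 genes that carry a matching name but are no core subunit here (Cox4nb, Cox6c-ps1, Cox7a2l, Ndufa7l, Atp5hl1, Atp5s and Atp5sl). The 4 genes that did not pass, Uqcrq, Cox7b2, Cox8c and Ndufaf2, were not well above background on any of the 18 arrays. Under the names Nd1 to Nd6, Nd4l, Cytb, Cob, Cox1 to Cox3, Atp6 and Atp8, no subunit encoded by mitochondrial DNA was found. Cox1 and Cox2 were searched for only with an mt prefix, and other names were not searched for. The set holds nuclear genes only.

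The rats were of strain SD and weighed 200 g. Per the labels, 30 rats were given the anti-Thy1 antibody and their glomeruli were taken on day 1, 2, 3, 4 or 5, and 6 control rats were given saline and make up day 0. The labels give 3 glomeruli from each of 6 rats per time point, and each time point has 3 single-colour Agilent arrays, named here by day and replicate number. Thy1 marks rat mesangial cells, and the antibody injures these cells in an otherwise intact animal. Which animals contributed RNA to which array is not in the labels, so each p-value reflects only variation among arrays, part of which may be technical. The limma p-values use a spread pooled over the arrays of all 6 time points and moderated over genes. The permutation p-values come from reassigning all 18 arrays. In whole glomeruli, fewer cells of a type and less RNA per cell cannot be told apart.

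Complex I oxidises NADH and complex II oxidises succinate, and both pass electrons through ubiquinone to complex III and through cytochrome c to complex IV, which reduces oxygen. Complexes I, III and IV pump protons across the inner mitochondrial membrane, and complex V, the ATP synthase, uses the proton gradient to make ATP. Several complex IV subunits have isoforms that differ between tissues: Cox6a2 and Cox8b are the heart and skeletal muscle forms of Cox6a1 and Cox8a, Cox4i2 is the form of Cox4i1 known from lung and from oxygen-sensing cells, and Cox6b2 is a testis form. The 3 genes Atp5g1, Atp5g2 and Atp5g3 (now Atp5mc1, Atp5mc2 and Atp5mc3) encode the same mature c subunit of the ATP synthase ring.

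The probes on which several results turn are shown first, because some of these genes have near copies and others have a second probe with another pattern. Each line is a stretch of 30 bases of a 60-base probe as deposited, 5′ to 3′. In the first pair, of Cox6c (rn4 chr7:71465887-71474416, minus strand) and the pseudogene Cox6c-ps1 (chr19:54398113-54398172, minus strand), capitals mark the bases that differ between the aligned stretches. Over the whole overlap of the 2 probes, 41 of 48 aligned bases were identical (85.4%), so the Cox6c-ps1 signal may contain Cox6c transcripts and is uncertain.
Cox6c: gtctttcAgagtgCgaagtGatttCagaat
Cox6c-ps1: gtctttcGgagtgTgaagtAatttTagaat

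The next 4 lines show the isoform pairs with the largest change in balance, with capitals for the longest run of bases shared by the 2 probes of a pair. The probes of Cox6a2 (chr1:187464932-187464991, minus strand) and Cox6a1 (chr12:42533025-42533084, plus strand) share a run of 5 bases, and those of Cox4i2 (chr3:143114063-143114122, plus strand) and Cox4i1 (chr19:51024035-51025064, plus strand) a run of 4 bases. The isoforms of a pair were thus read by unlike probe sequences.
Cox6a2: cttggcgcctccTGACCtttgtgctggctc
Cox6a1: tctttcctttatcagatggTGACCattact
Cox4i2: ggaaaaAGTGaccaacatcacagtctgctg
Cox4i1: gcagcAGTGgcagaatgttggctaccaggg

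The last pair gives both probes of Ndufc2, a complex I subunit, with G and C in capitals, because they followed different courses. Over its full length the first Ndufc2 probe (chr1:154641288-154641951, plus strand) holds 30% and the second (chr1:154642009-154642068, plus strand) 38.3%.
Ndufc2, first probe: tatatGaaattaCatCCaGaaGattttCCt
Ndufc2, second probe: aatattttCtGaattttatGGGatGtCttt

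A log2 level in what follows is log2 of a probe's processed signal minus the 75th percentile of that signal on the same array, so that 0 is the level of that percentile. Levels of different probes are not compared with each other. The 75th percentile itself lay between 180.7 and 229.2 on the 3 control arrays and between 251.9 and 452.4 on the 15 others, and the share of probes well above background was 55.2% to 69.6%. The controls and day 1 replicate 1 share a slide, and the arrays of days 2 and 4 had a scan day of their own, so that scan day and time cannot be told apart for them. Day 0 replicate 4 stood apart from the other controls: 78 of the 85 genes were lowest on it, and the median deviation of the core subunits from the control mean was -0.39 there against 0.19 and 0.23 on replicates 2 and 5. Of 96 calls against day 0 among the 37 genes of the set named by rule, 46 in 27 genes were lost without that array, and these losses are given beside each gene. Of the podocyte markers, 8 of 8 were measured, and all were well above background in every group, as were the 6 mesangial markers. The 12 proximal tubule markers, from cells rich in mitochondria, were above background in every group as well.

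Most subunits were higher after the antibody than in the controls on days 1, 4 and 5, and fewer were on days 2 and 3. On day 1, 60 of the 85 genes rose and 3 fell by limma (adjusted p under 0.05), beside 19.2% of all genes that rose and 20.7% that fell (39.9% changed). On day 2, 26 rose and 3 fell, against 20.8% and 25.1% of all genes (45.9% changed), and on day 3, 18 rose and 3 fell, against 21.7% and 26% of all genes (47.7% changed). The share that rose on day 3, 21.2%, was thus near the background. On day 4, 71 rose and 3 fell, against 25.5% and 26.7% of all genes (52.2% changed), and on day 5, 61 rose and 3 fell, against 20.9% and 23.3% of all genes (44.2% changed). The same 3 genes, Ndufs1, Cox4i2 and Cox6a2, were called lower on each of the 5 days.

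The median log2 change of the 85 genes was 0.59 on day 1, 0.45 on day 2, 0.32 on day 3 (below 0 under 2 other scalings given below), 0.82 on day 4 and 0.68 on day 5, while the median of all genes tested was 0.06, 0.04, -0.02, 0.05 and 0.06. Most of these genes are abundant, and 70 of the 85 lie among the 4640 genes with the highest mean level over all 18 arrays (the brightest genes below). The median change of those 4640 was 0.43, 0.35, 0.36, 0.52 and 0.48 on days 1 to 5, so on day 3 the median of the oxidative phosphorylation genes lay below that of the brightest genes and on days 1, 2, 4 and 5 above it. Of the brightest genes, 39.1% rose on day 1, 34.1% on day 2, 40.2% on day 3, 49.8% on day 4 and 45.7% on day 5. Among the 70 genes of the set among them the shares were 74.3%, 28.6%, 18.6%, 87.1% and 77.1%. Ranked by mean level over the controls alone, the brightest 4640 genes had medians of 0.37, 0.28, 0.27, 0.41 and 0.41. The median of the 85 genes lay above these on every day, so its place on day 3 depended on the ranking. Of the genes ranked on the controls, 33.4%, 27.8%, 33.5%, 42.9% and 39.7% rose on days 1 to 5.

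The size of the rise depended on how arrays were scaled to each other. The mean of the 12 reference genes (housekeeping genes) itself lay 0.48, 0.38, 0.46, 0.63 and 0.41 higher than in the controls on days 1 to 5 on the log2 scale. These genes did not all move alike. Against that mean, Polr2a read 1.06, 2.51 and 1.12 on the controls and -0.95 to 0.44 on the antibody arrays. With arrays scaled to the mean of all 12, the median change of the oxidative phosphorylation genes was 0.11, 0.07, -0.14, 0.19 and 0.27, and that of all genes was -0.42, -0.33, -0.47, -0.57 and -0.35. Quantile normalization gave 0.25, 0.17, -0.04, 0.36 and 0.29, so the day 3 median was below 0 under both. The 75th percentile, median and reference gene scalings shift all genes of an array alike, so the gap between the set and all genes is the same under each by construction. Quantile normalization can change that gap, and with it the set lay above all genes on days 1, 2, 4 and 5 and 0.10 below on day 3. The plot of medians under each scaling shows the 4 courses.

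**Figure D1:**
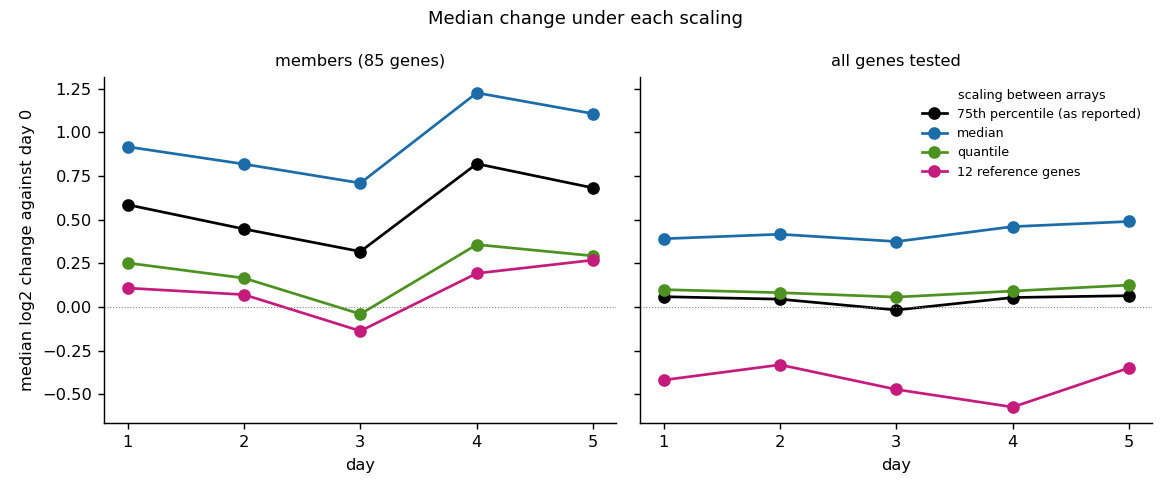
Median log2 change against day 0 on days 1 to 5 of the 85 oxidative phosphorylation genes (left) and of all genes tested (right), one line per scaling between arrays. All 4 lines of the left panel dip on day 3, where the median runs from -0.14 with reference gene scaling to 0.71 with median scaling.

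The counts also rested on single arrays. Without day 0 replicate 4, 14 genes rose and 2 fell on day 1, 7 and 3 on day 2, 6 and 3 on day 3, 57 and 3 on day 4, and 40 and 2 on day 5, with medians of 0.40, 0.25, 0.11, 0.62 and 0.49. Of all 23199 genes, the same fits called 4609, 7123, 8369, 9308 and 6506 on days 1 to 5. Of these, 2007, 2766, 3563, 4189 and 2818 rose. Day 1 also gave 14 risers without day 1 replicate 4 and 22 without day 1 replicate 1 (2203 and 2541 of all genes). Day 2 gave 8 risers without day 2 replicate 3 or without replicate 4 (3123 and 3537 of all genes). Day 3 gave 7 without day 3 replicate 2 and 10 without replicate 3 (3617 and 4109 of all genes). With the replicate number as a block, 13, 8, 6, 38 and 54 genes rose on days 1 to 5 and 3 fell on each. That fit called 6369, 7932, 8723, 7797 and 9044 of all genes, of which 2953, 3335, 3848, 3601 and 4123 rose. Among the 37 genes named by rule, leaving out day 1 replicate 1 ended 16 calls, day 1 replicate 4 ended 18, day 5 replicate 2 ended 11 and day 5 replicate 4 ended 9, and each other array apart from day 0 replicate 4 ended 5 or fewer. Within the first slide, the only one with both controls and antibody arrays, day 1 replicate 1 lay above the control mean in 81 of the 85 genes, with a median difference of 0.65, beside 0.09 over all genes and 0.46 over the brightest genes. It lay above the control mean in 12469 of all 23199 genes and in 3765 of the 4640 brightest.

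No gene of the set was called in the 3 comparisons run between days after the antibody. Day 3 against day 1, day 5 against day 1 and day 4 against day 2 gave 0 calls each by limma, where 0.00431%, 0.125% and 0.0991% of all genes changed. Of all genes, 0.00431% were lower on day 3 than on day 1, 0.0905% were higher and 0.0345% lower on day 5 than on day 1, and 0.0603% were higher and 0.0388% lower on day 4 than on day 2. At an unadjusted p under 0.05 by limma there were 11, 5 and 30 of the 85 genes, beside 3169, 2069 and 3222 of all 23199 genes. The median change of the 85 genes was -0.27 from day 1 to day 3 and 0.38 from day 2 to day 4. The lower medians of days 2 and 3 are thus a description, with no called difference in these 3 comparisons. Other pairs of days after the antibody were not tested.

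The 5 complexes had similar medians. In complex I, 24, 10, 9, 29 and 28 of 34 subunits rose on days 1 to 5, and 1 fell on each day, with medians of 0.65, 0.45, 0.35, 0.84 and 0.77. Complex II had 2, 1, 0, 3 and 1 risers among its 4 subunits, with medians of 0.54, 0.42, 0.14, 0.78 and 0.48. Complex III had 5, 0, 1, 4 and 4 among 6, with medians of 0.60, 0.30, 0.39, 0.82 and 0.73. Complex IV, where 2 of 13 fell on each day, had 7, 3, 0, 9 and 6 risers and medians of 0.51, 0.45, 0.31, 0.80 and 0.53. Complex V had 11, 3, 0, 13 and 12 risers among 15 and none that fell, with medians of 0.56, 0.37, 0.26, 0.71 and 0.62. Of all genes, 19.2%, 20.8%, 21.7%, 25.5% and 20.9% rose on days 1 to 5 and 20.7%, 25.1%, 26%, 26.7% and 23.3% fell. Beside these, the shares that rose on days 2 and 3 were 29.4% and 26.5% in complex I and 25% and 0% in II. They were 0% and 16.7% in complex III, 23.1% and 0% in IV and 20% and 0% in V.

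Taken as deviation from the control mean, the medians of the 5 complexes spread over 0.01 to 0.43 on an array, least on day 2 replicate 2 and most on day 5 replicate 5. On day 4 the core subunits lay at 0.96, 0.56 and 0.80 on replicates 1, 2 and 3, and on day 5 at 0.82, 0.77 and 0.42 on replicates 2, 4 and 5. No difference between complexes was tested.

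**Figure D2:**
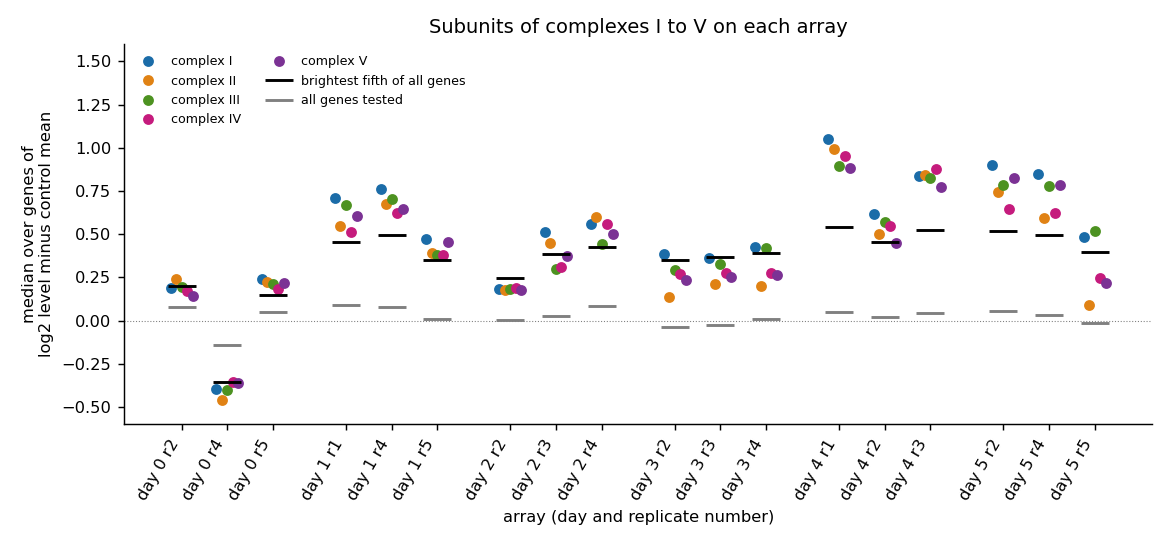
Median over the subunits of each complex of the log2 level minus the mean of the 3 controls, for each of the 18 arrays, with horizontal ticks for the median of all genes and of the 4640 brightest genes. Day 0 replicate 4 lies below the other controls for all 5 complexes, and the highest core median is that of day 4 replicate 1 (0.96).

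**Figure D3:**
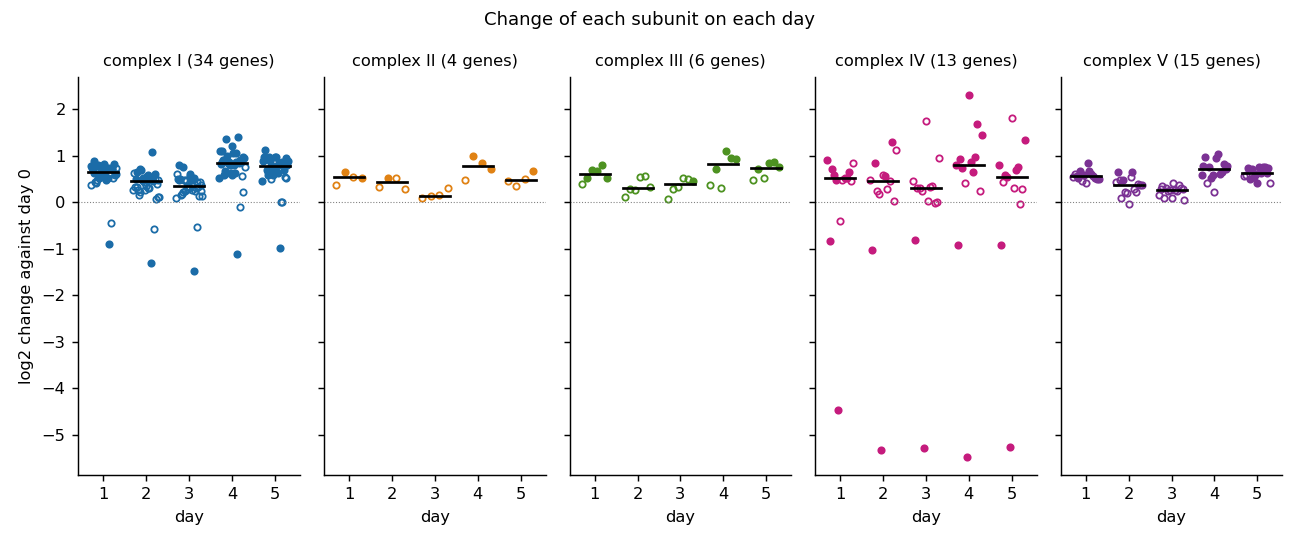
Log2 change against day 0 of every core subunit on days 1 to 5, one panel per complex, with filled points for adjusted p under 0.05 by limma and a black line for the median. Complex IV has the widest range, from -5.47 (Cox6a2) to 2.30 (Cox6b2) on day 4, and no complex V subunit is called lower.

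Of the 72 core subunits, 6 were called higher on all 5 days, 9 on 4 days, 29 on 3 days, 13 on 2 days, 6 on 1 day and 9 on none. On a given day 19.2% to 25.5% of all genes rose. All 5 days were set against the same 3 controls, and the matching tally over all genes is not given here. Among all 85 genes, 61 passed the moderated F-test over the 6 time points, beside 53% of all genes.

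In complex I the largest mean rises over the 5 days were those of Ndufa8, Ndufa13, Ndufb5 and Ndufa10l1, supernumerary subunits that surround the catalytic core. Ndufa8 had log2 levels of 2.63, 2.00 and 2.45 on the controls, 3.22, 3.33 and 2.91 on day 1, 2.85, 3.17 and 3.17 on day 2, 3.24, 3.16 and 2.97 on day 3, 3.67, 3.69 and 3.75 on day 4, and 3.40, 3.22 and 3.34 on day 5. All 15 antibody arrays lay above all 3 controls. The rise was 0.80 on day 1 and 1.35 ± 0.17 (SE, n = 3 arrays per group) on day 4, 2.54-fold, with an adjusted p by limma of 0.00016, and it passed the threshold on every day without day 0 replicate 4 as well. Ndufa13, also named Grim19, rose on each of the 5 days, by 1.13 on day 5 (adjusted p by limma 0.00163), although the day 2 call was lost without day 0 replicate 4 (adjusted p 0.114) and without day 2 replicate 3 or 4. Ndufb5 rose on each day, by 1.22 on day 4, and without that control its day 2 and day 3 calls were lost (adjusted p 0.181 and 0.154), as they were without day 2 replicate 3 or 4 and without any 1 array of day 3. Ndufa10l1 rose on days 1, 4 and 5, by 1.10 on day 4, and without that control the day 1 and day 5 changes were 0.52 and 0.62 (adjusted p 0.148 and 0.0797). Its day 1 call was also lost without day 1 replicate 1 or 4 and its day 5 call without day 5 replicate 2.

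At the other end of complex I stood Ndufs1, the largest subunit of the catalytic core, which carries iron-sulphur clusters of the electron path. Its controls read 2.14, 3.28 and 2.46 on replicates 2, 4 and 5, and its arrays read 1.67, 1.61 and 1.88 on day 1, 1.13, 1.39 and 1.45 on day 2, 1.06, 0.97 and 1.40 on day 3, 1.89, 1.05 and 1.57 on day 4, and 1.82, 2.03 and 1.11 on day 5. Every antibody array lay below every control. Ndufs1 fell by 1.48 ± 0.30 on the log2 scale on day 3 (2.80-fold, adjusted p by limma 0.00143) and by 0.91 to 1.30 on the other days. Without day 0 replicate 4, the array on which it was highest, the day 1 and day 5 calls were lost (adjusted p 0.14 and 0.093), as they were without day 1 replicate 1 or 4 and without day 5 replicate 5, and the day 3 change was -1.16 (adjusted p 0.008). On the first slide, day 1 replicate 1 lay 0.96 below the control mean.

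The other low members of complex I were not called lower. Ndufs4, an accessory subunit, had changes of -0.45, -0.59, -0.53, -0.11 and -0.01 on days 1 to 5, with overlap with the controls on each day and a lowest adjusted p by limma of 0.0934, on day 2. Ndufv1, which holds the NADH binding site, had changes of 0.12 to 0.59 and passed on no day. Ndufa1 rose on days 4 and 5, by 0.51 and 0.46, and both calls were lost without day 0 replicate 4, with values of 0.37 and 0.31 (adjusted p 0.0696 and 0.14). Its day 4 call was also lost without day 4 replicate 1 and its day 5 call without day 0 replicate 2 or day 5 replicate 2 or 4. Ndufa4, listed with complex I by name but now counted as a complex IV subunit, rose on days 4 and 5, by 0.58 and 0.68, and without that control its day 4 value was 0.39 (adjusted p 0.0617).

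Ndufb3 was represented by its brighter probe, which rose on days 1, 4 and 5 by 0.58, 0.63 and 0.74. Its second probe read -1.72, -0.95 and -1.81 on the controls and -2.01 to -3.08 on the antibody arrays, below all controls. In a fit over all probes that second probe fell on each of the 5 days, by 1.31 on day 3 (adjusted p by limma 0.0012). Of the 14 genes with more than 1 probe, Ndufaf4, Cox7c, Uqcrfs1 and Atp5g2 also had a probe whose value was opposite in sign to that of the brightest probe on 1 day or more.

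All 4 succinate dehydrogenase genes, which make up complex II and also serve the tricarboxylic acid cycle, were measured well above background on every array. Sdhb, the iron-sulphur subunit, read 4.85, 4.21 and 4.88 on the controls, 5.33, 5.41 and 5.17 on day 1, 5.03, 5.19 and 5.28 on day 2, 4.87, 4.95 and 4.51 on day 3, 5.78, 5.46 and 5.70 on day 4, and 5.20, 5.03 and 4.73 on day 5. Days 1, 2 and 4 lay above all controls, and days 3 and 5 overlapped them. It rose by 0.65, 0.52 and 1.00 on days 1, 2 and 4 (adjusted p by limma 0.018, 0.0419 and 0.00098). Its day 1 and day 2 values without day 0 replicate 4 were 0.44 and 0.30 (adjusted p 0.0851 and 0.199), and these calls were also lost without day 1 replicate 1 or 4 and without day 2 replicate 3 or 4. Sdhc, a membrane anchor, rose on day 4 by 0.84, and Sdhd, the other anchor, on days 1, 4 and 5 by 0.53, 0.72 and 0.66. The Sdhd calls of days 1 and 5 were lost without day 0 replicate 4 (0.30 and 0.43, adjusted p 0.21 and 0.0728), without any 1 array of day 1 and without day 5 replicate 4. Sdha, the flavoprotein, passed on no day, with changes of 0.09 to 0.48, and its lowest antibody array (6.49, day 3 replicate 2) lay inside the range of the controls, 5.89 to 6.83.

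In complex III, the cytochrome bc1 complex, the Rieske protein Uqcrfs1 and the core protein Uqcrc2 had the largest mean rises. Uqcrc2 read 4.72, 3.99 and 4.81 on the controls and 5.74, 5.38 and 5.71 on day 4, a rise of 1.10 ± 0.23 (adjusted p by limma 0.00138) that was still called without day 0 replicate 4, whereas its day 1 and day 5 calls were then lost (0.41 and 0.57, adjusted p 0.165 and 0.053). Uqcrfs1 rose on days 1, 4 and 5 by 0.81, 0.95 and 0.86, but its second probe passed on day 4 only, by 0.79. These 3 Uqcrfs1 calls were lost without day 0 replicate 4, with values of 0.52, 0.66 and 0.57 (adjusted p 0.154, 0.054 and 0.11), and the day 5 call was also lost without day 5 replicate 2. Uqcrh, the hinge protein, rose on days 1, 3, 4 and 5, by 0.93 on day 4, and Uqcrb on days 1, 4 and 5, by 0.70 on day 4. Uqcrc1, the second core protein, rose on day 1 only (0.69), and Uqcr11 passed on no day. Without day 0 replicate 4 the day 1 calls of Uqcrb, Uqcrc1 and Uqcrh were lost (adjusted p 0.131, 0.102 and 0.0728), as was the day 3 call of Uqcrh (adjusted p 0.118), which was also lost without day 3 replicate 2 or 3. Each day 1 call of complex III named here was lost without day 1 replicate 4, and each but that of Uqcrh without day 1 replicate 1. One of the 4 Uqcrb probes was above background on 1 array only and was not tested, and the other 2 had values of the same sign as the brightest probe.

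Complex IV held the extremes, and they were isoform genes. Cox6a2, the muscle form of subunit 6a, read 4.13, 6.64 and 4.50 on control replicates 2, 4 and 5. It read -0.45, -0.08 and 2.42 on day 1, 0.35, -0.52 and -0.51 on day 2, -0.22, -0.23 and -0.08 on day 3, -0.34, -0.49 and -0.30 on day 4, and -0.39, 0.42 and -0.50 on day 5. All 15 antibody arrays lay below all 3 controls, and day 1 replicate 5 was the highest of them. The fall was 4.46 ± 0.66 on day 1 (22.0-fold) and 5.47 ± 0.66 on day 4 (44.2-fold, adjusted p by limma 0.000146). Without day 0 replicate 4 the changes were -3.68, -4.54, -4.49, -4.69 and -4.47 on days 1 to 5, and each passed the threshold. On the first slide, day 1 replicate 1 lay 5.54 below the control mean.

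The second Cox6a2 probe was far less changed. It read -2.26, -1.30 and -2.24 on the controls, and -3.18, -2.25 and -2.15 on day 1, -3.17, -3.09 and -3.05 on day 2, -2.48, -2.89 and -2.92 on day 3, -2.87, -2.82 and -2.57 on day 4, and -2.64, -2.78 and -3.05 on day 5. It lay below the controls on days 2 to 5 and overlapped them on day 1. Its changes were -0.59, -1.17, -0.83, -0.82 and -0.89, called on days 2 to 5, so the 2 probes shared the direction but differed widely in size. Neither probe is tied by the files to a named transcript form. Of 6 striated muscle markers, Ckm and Myh7 were not above background, and the summed linear level of the other 4 (relative to the array's 75th percentile) was 1.58 to 1.78 on the controls and 1.65 to 4.04 on the antibody arrays. Of those 4, 1 rose on each of days 1 to 4 and none on day 5, and 1 fell on day 2 and 1 on day 4. The highest value on each of days 1 to 4 was that of the cardiac actin gene Actc1, with 1.94 on day 1 and 2.62 on day 4, and the lowest on days 2 and 4 was that of the myoglobin gene Mb (-0.83 and -0.50). Their part in the Cox6a2 result was not tested.

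Cox6a1, the common form, read 8.83, 8.19 and 8.76 on the controls, 9.11, 9.14 and 8.95 on day 1, 8.62, 8.80 and 8.89 on day 2, 8.78, 8.83 and 8.87 on day 3, 9.21, 8.81 and 8.99 on day 4, and 9.24, 9.22 and 8.92 on day 5. It rose on days 1 and 5, by 0.47 and 0.53, and both calls were lost without day 0 replicate 4 (0.27 and 0.33, adjusted p 0.193 and 0.104), without day 1 replicate 1 or 4 and without day 5 replicate 2 or 4. The difference between the 2 forms within an array, which does not depend on the scaling between arrays, fell by 5.52 on the log2 scale from the 3 controls to the 15 antibody arrays. In an exact two-sided permutation test over the 18 arrays the p was 0.00123, the smallest that 816 assignments allow, and 0.00306 after Benjamini-Hochberg adjustment over the 5 pairs run.

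Cox4i2 moved the same way by a smaller step. It read 1.72, 2.61 and 1.73 on the controls, 1.06, 1.18 and 1.32 on day 1, 1.07, 0.95 and 0.93 on day 2, 1.23, 1.18 and 1.24 on day 3, 0.93, 1.15 and 1.24 on day 4, and 1.08, 1.10 and 1.14 on day 5. The antibody arrays lay within 0.93 to 1.32, below each control. It fell by 1.04 ± 0.20 on day 2 (2.05-fold, adjusted p by limma 0.00141) and by 0.80 to 0.92 on the other days, and without day 0 replicate 4 by 0.51 to 0.74, still called on each day. Cox4i1 read 3.89, 3.56 and 3.98 on the controls, 4.83, 4.86 and 4.43 on day 1 and 4.81, 4.34 and 4.69 on day 4, and rose on days 1, 4 and 5 by 0.90, 0.80 and 0.79. The difference Cox4i2 minus Cox4i1 fell by 1.58 (exact permutation test, two-sided, adjusted p 0.00306), and by 1.17 when day 0 replicate 4 was left out.

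**Figure D4:**
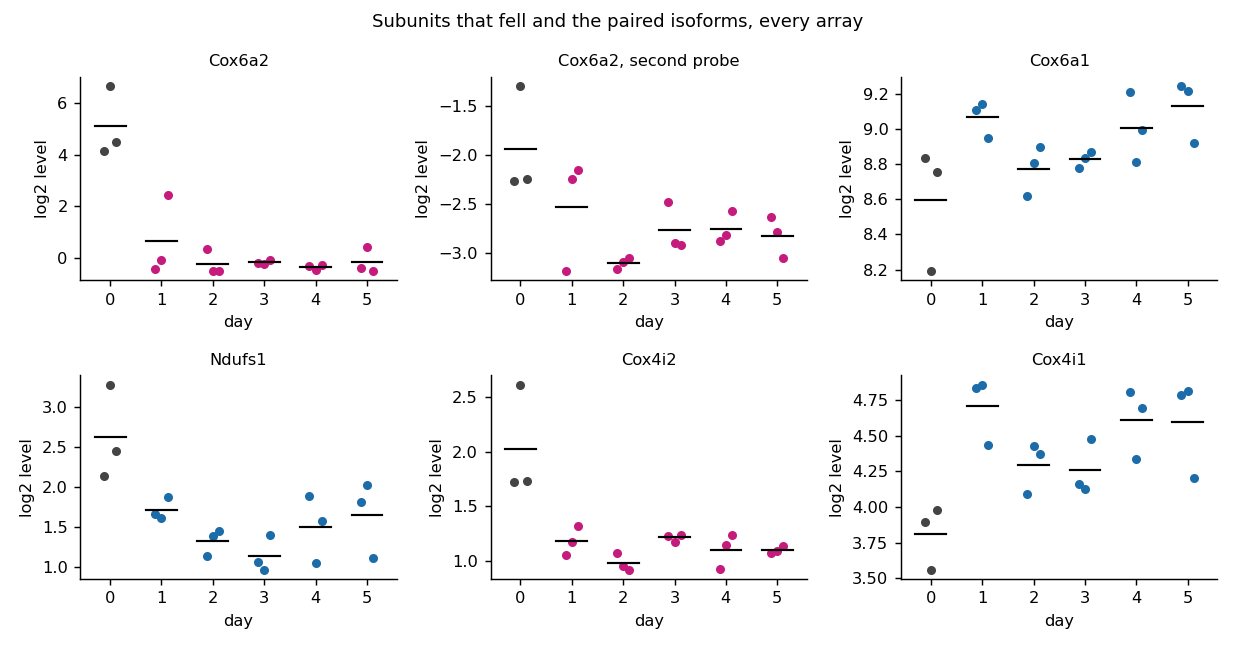
Log2 level on each of the 18 arrays of both Cox6a2 probes, Cox6a1, Ndufs1, Cox4i2 and Cox4i1, one panel each with its own axis, with lines for the mean of a day. The brighter Cox6a2 probe drops from between 4.13 and 6.64 on the controls to at most 2.42 on the antibody arrays, while Cox6a1 and Cox4i1 do not drop.

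The remaining isoform pairs changed less. The difference Atp5g2 minus Atp5g3 was 1.25, 1.61 and 1.11 on the controls and 0.44 to 1.22 on the antibody arrays, a fall of 0.48 (exact permutation test, two-sided, adjusted p 0.00408). Atp5g1 minus Atp5g3 fell by 0.25 (adjusted p 0.00919). Both calls were lost without day 0 replicate 4, with differences of -0.33 and -0.15 and adjusted p of 0.0735 and 0.101. Cox8b minus Cox8a rose by 0.85 over 17 arrays, since day 0 replicate 2 had a flagged Cox8b spot (exact permutation test, adjusted p 0.0368). That difference turned to -0.03 and -0.49 under 2 other background corrections, so its direction is not settled. Without day 0 replicate 4 it was 0.41 and without replicate 5 it was 1.28. Each of these runs leaves a single control with a Cox8b value, so no p-value is given for them. The partners Cox6b1, Cox7a1 and Ndufa4l2 had no row on the array, and Cox6b2 and Cox7a2 were therefore read without them.

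Cox6b2 and Cox8b were dim. Cox6b2 was well above background on 2 of 3 controls, on 2 of 3 day 1 arrays and on all later arrays, and it read -3.27, -3.93 and -4.86 on the controls, -3.55, -5.69 and -4.04 on day 1, -3.77, -3.85 and -2.69 on day 2, -2.29, -2.16 and -2.41 on day 3, -2.78, -0.89 and -1.50 on day 4, and -3.99, -2.73 and 0.08 on day 5. Days 3 and 4 lay above all controls, while the day 5 arrays lay far apart. It rose on day 4 by 2.30 ± 0.83 (adjusted p by limma 0.0305), a value that rests on 2 measured controls and 1 at background. Cox6b2 passed the filter through days 2 to 5 only, which include the day of this call. That call was lost without day 0 replicate 4 (2.34, adjusted p 0.0706) or 5 or day 4 replicate 2 or 3. Cox8b rose on days 4 and 5, by 1.45 and 1.34, and both calls are among those lost without day 0 replicate 4. That fit leaves a single control with a Cox8b value, and its changes were 0.76 and 0.65. The day 4 call was also lost without day 4 replicate 1 and the day 5 call without day 5 replicate 2 or 4.

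Among the common complex IV subunits, Cox7a2 rose on days 1, 4 and 5 by 0.51, 0.64 and 0.68, and its day 1 call was lost without day 0 replicate 4 (0.29, adjusted p 0.132) or day 1 replicate 1 or 4. Cox8a passed on no day, with changes of 0.00 to 0.44. Cox7c, a small subunit, read 2.56, 2.21 and 2.69 on the controls, 3.18, 3.11 and 3.14 on day 1, 3.62, 3.84 and 3.91 on day 2, 2.85, 2.77 and 1.77 on day 3, 4.29, 4.05 and 4.15 on day 4, and 2.66, 2.44 and 2.23 on day 5. Days 2 and 4 lay above every other array, and days 3 and 5 overlapped the controls. It rose by 0.66, 1.30 and 1.68 ± 0.24 on days 1, 2 and 4 (adjusted p by limma 0.0389, 0.00121 and 0.000211). The day 1 call was lost without day 0 replicate 4 (0.52, adjusted p 0.152) or 2, or any 1 array of day 1. The second Cox7c probe, richer in G and C, rose by 0.63, 0.66, 1.06 and 0.64 on days 1, 3, 4 and 5 and did not pass on day 2 (0.38), so the return to control levels on days 3 and 5 was seen with 1 probe only.

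The arrays of days 2 and 4 share a scan day. All 6 arrays of days 2 and 4 lay above all 9 arrays of days 1, 3 and 5 for 3 of the 85 genes, Cox7c and Cox6c-ps1 among them, beside 1.75% of all genes, and below them for none, beside 0.849%. The mean differences of Cox7c and Cox6c-ps1 were 1.29 and 1.98 log2 units. Cox6c-ps1 was above background on 7 arrays, on none of the controls and on all arrays of days 2 and 4. It was at least 2.07-fold higher on day 2 and at least 2.95-fold higher on day 4 than in the controls, against the lowest signal above background or its own, whichever was higher. Cox6c-ps1 passed the filter only through days 2 and 4, where it was high. Its calls on those days and its place among the 3 genes follow in part from that selection, and no p-value is given. The counts of risers on days 2 and 4 include it. The first Ndufc2 probe had a difference of 1.41 between the same arrays and the second 0.05.

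Over all 85 genes the difference between days 2 and 4 and days 1, 3 and 5 went with the base composition of the probe. Spearman's rho was -0.49 and Pearson's r -0.43 across these genes, which share their arrays and are not independent. Over all genes tested the median difference was 0.32 for probes of up to 30% G and C, 0.06 from there to 40%, -0.04 to 50% and -0.18 above. In the set, the 2 probes in the first range had a median of 0.79, the 23 in the second 0.11, the 41 in the third 0.01 and the 19 in the fourth -0.07. Scan day, time and probe composition were not separated, and the part of each in these differences was not tested.

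**Figure D5:**
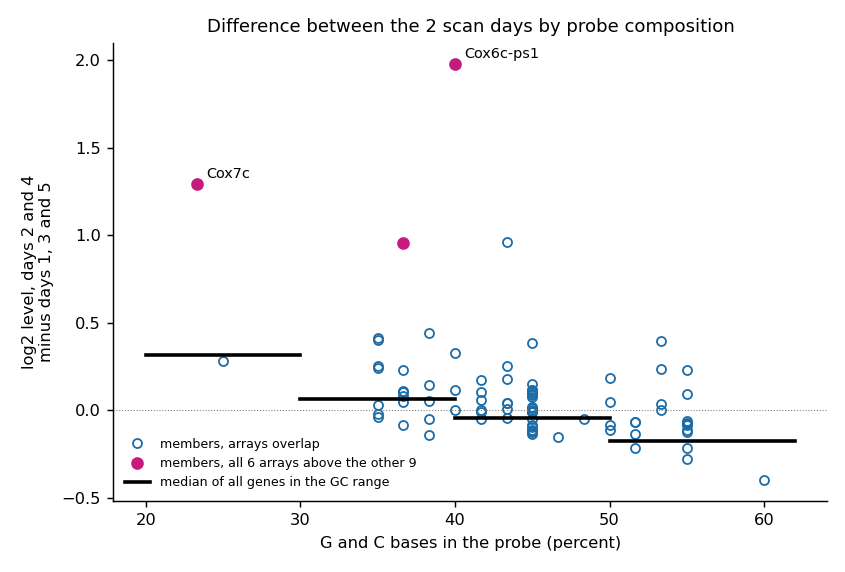
Mean log2 level of days 2 and 4 minus that of days 1, 3 and 5 for each of the 85 genes, against the percent of G and C in its probe, with black lines for the median of all genes in 4 ranges. Filled points mark the 3 genes whose 6 arrays of days 2 and 4 lie above the other 9, among them Cox7c and Cox6c-ps1, by 1.29 and 1.98.

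The 15 complex V genes had changes of 0.40 to 0.84 on day 1 and 0.23 to 1.04 on day 4. The largest mean rises were those of Atp5h, Atp5c1, Atp5g3 and Atp5e, now named Atp5pd, Atp5f1c, Atp5mc3 and Atp5f1e, which encode subunit d of the peripheral stalk, the gamma shaft, a c ring subunit and the epsilon subunit. Atp5h read 5.68, 5.13 and 5.81 on the controls, 6.19, 6.18 and 6.26 on day 1, 5.95, 6.21 and 6.40 on day 2, 5.81, 5.92 and 5.66 on day 3, 6.79, 6.35 and 6.59 on day 4, and 6.17, 6.26 and 6.06 on day 5. Only day 3 overlapped the controls. It rose on days 1, 2, 4 and 5, by 1.04 ± 0.18 on day 4 (2.05-fold, adjusted p by limma 0.000541). The calls of days 1 and 5 were lost without day 0 replicate 4 (0.47 and 0.41, adjusted p 0.0531 and 0.0653), and that of day 2 without day 2 replicate 4.

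Atp5g3 rose on days 1, 4 and 5 by 0.84, 0.94 and 0.75, and its other 2 probes passed on the same days and on day 2. Its day 1 and day 5 values without day 0 replicate 4 were 0.62 and 0.53 (adjusted p 0.0876 and 0.126). Atp5c1 rose on the same days, by 0.56, 0.97 and 0.73, and Atp5e on days 1, 2, 4 and 5, by 0.76 on day 4. The day 1 call of Atp5c1 was lost without any 1 control (0.57 without replicate 4, adjusted p 0.0936) and its day 5 call without day 5 replicate 2. Atp5e lost its day 1 and day 2 calls without day 0 replicate 4 (0.49 and 0.29, adjusted p 0.0603 and 0.211) and its day 2 call also without day 2 replicate 3 or 4. The lowest mean changes were those of Atp5g2, Atp5d, Atp5f1 and Atp5o. Atp5g2 rose on day 5 only, by 0.42, while its second probe passed on days 1, 3, 4 and 5 with 0.40, 0.40, 0.38 and 0.60. Atp5d (delta subunit) rose on days 1 and 5, by 0.51 on each, Atp5f1 (now Atp5pb, subunit b of the stalk) on days 4 and 5, by 0.53 and 0.54, and Atp5o (the stalk protein that confers oligomycin sensitivity) on days 1 and 4, by 0.51 and 0.78. Without day 0 replicate 4, both Atp5d calls (adjusted p 0.206 and 0.198), both Atp5f1 calls (adjusted p 0.177 and 0.186), the Atp5g2 call (adjusted p 0.118) and the day 1 call of Atp5o (adjusted p 0.216) were lost. The calls of Atp5d, Atp5f1, Atp5g2 and Atp5g3 on day 5 were also lost without day 5 replicate 2 or 4, and that of Atp5g2 without day 0 replicate 5. The Atp5f1 call of day 4 was also lost without day 4 replicate 1 or 3. On day 1, the calls of Atp5c1, Atp5d, Atp5g3 and Atp5o were lost without day 1 replicate 1 or 4, that of Atp5e without replicate 4, and those of Atp5d and Atp5o also without replicate 5. Atp5g1 rose on days 1, 4 and 5 by 0.59, 0.58 and 0.61, and the 3 calls were lost without day 0 replicate 4 (adjusted p by limma 0.116, 0.0869 and 0.0874), as they were without day 1 replicate 1 or 4, day 4 replicate 1 or 3 and day 5 replicate 2 or 4 on the day concerned.

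Of the 6 measured Ndufaf genes, which help to build complex I and are absent from the finished enzyme, 5, 3, 5, 6 and 5 rose on days 1 to 5. Ndufaf7 read -1.36, -1.08 and -1.40 on the controls and -0.26, -0.27 and -0.47 on day 1, and its rise of 0.95 ± 0.14 (adjusted p by limma 0.00134) was the largest of the 85 genes on day 1. The other 2 Ndufaf4 probes did not follow its brightest one: neither passed on any day, and on day 4 they had values of 0.16 and 0.34 against 1.08. Of the 7 genes matched by name only, 6, 6, 3, 7 and 5 rose. Both counts stand beside 19.2%, 20.8%, 21.7%, 25.5% and 20.9% of all genes that rose. Atp5hl1, a gene like Atp5h, read 0.19, 0.32 and 0.43 on day 2, 0.89, 0.46 and 0.72 on day 4 and -0.83, -0.60 and -0.90 on day 5. Whether its probe also reads Atp5h was not tested.

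Related mitochondrial genes were counted from lists chosen by function. For each list, the shares of all genes that rose on days 1 to 5 were 19.2%, 20.8%, 21.7%, 25.5% and 20.9%. The shares of all genes that fell were 20.7%, 25.1%, 26%, 26.7% and 23.3%. Of 68 mitochondrial ribosome genes, 53, 36, 44, 55 and 53 rose on days 1 to 5, with medians of 0.63, 0.46, 0.53, 0.80 and 0.72, and at most 1 fell on a day (Mrpl52 on days 3 and 4, by 0.75 and 0.71). Mrpl40, Mrpl42 and Mrpl3 rose most, by 2.00, 1.78 and 1.73 on day 4. Day 0 replicate 4 was the lowest control for these 3 genes (-1.03, -0.95 and -2.15), and their values without it are not given here. The share that rose on day 3 there, 44 of 68, stands beside 18 of the 85 oxidative phosphorylation genes, and this difference was not tested.

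Of 17 carrier and exchange genes, 7, 5, 5, 8 and 9 rose (41.2%, 29.4%, 29.4%, 47.1% and 52.9%) and 0, 0, 0, 1 and 1 fell. The adenine nucleotide translocator Slc25a5 rose by 1.29, Coq7 of ubiquinone synthesis by 1.16 and the outer membrane channel Vdac2 by 1.14 on day 4, while the uncoupling protein Ucp2 fell by 1.40 on day 4 and 1.25 on day 5. Of 18 further assembly factors, 10, 5, 5, 11 and 9 rose (55.6%, 27.8%, 27.8%, 61.1% and 50%) and 1, 2, 2, 1 and 2 fell. Bcs1l, which inserts the Rieske protein, rose by 1.16 on day 1 and 1.29 on day 5, and Cox15, needed for the haem of complex IV, fell by 0.93 to 1.37 on days 1 to 5. Cox19, which takes part in copper supply to complex IV, rose on each day, by 1.17 on day 4. Tmem126b, a complex I assembly factor, rose on days 1, 3, 4 and 5, by 0.92 on day 4. Sco1, which delivers copper to complex IV, fell on days 2, 3 and 5, by 0.84, 0.76 and 0.87. Day 0 replicate 4 was the highest control of Ucp2 (1.37, against 0.13 and -0.06), Cox15 (0.39, against -0.71 and -0.37) and Sco1 (-0.22, against -1.77 and -1.36). It was the lowest control of Slc25a5, Coq7, Vdac2, Cox19 and Tmem126b. These falls and rises rest in part on that array, and values without it are not given here.

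Of 21 tricarboxylic acid cycle and pyruvate dehydrogenase genes, 4, 2, 2, 9 and 4 rose (19.0%, 9.52%, 9.52%, 42.9% and 19.0%, beside 19.2%, 20.8%, 21.7%, 25.5% and 20.9% of all genes) and 2, 2, 0, 2 and 2 fell, with medians of 0.47, 0.31, 0.14, 0.51 and 0.37. Pdhx and Dld, subunits of the pyruvate dehydrogenase complex, rose by 1.24 and 1.05 on day 4. Pdha1, which encodes its E1 alpha subunit, rose on days 2 and 4 by 0.98 and 1.12. Of the kinases that inhibit that complex, Pdk4 fell by 4.75 on day 1, 2.34 on day 4 and 3.56 on day 5. It had values of 0.12 on day 2 and -1.41 on day 3 (adjusted p by limma 0.919 and 0.203). The day 3 value rests on replicate 2: Pdk4 read -1.24, 3.49 and 3.64 on replicates 2, 3 and 4, against 3.14 to 3.58 on the controls. Pdk1 fell by 1.30 on day 1, 1.06 on day 2, 1.24 on day 4 and 1.51 on day 5 and had a value of -0.85 on day 3 (adjusted p by limma 0.0853). Pdk3 fell on day 2 only, by 0.66. Day 0 replicate 4 was the highest control of Pdk1 (-0.43, against -2.19 and -1.92) and Pdk3 (0.68, against -0.31 and -0.13). It was the lowest control of Pdhx, Dld and Pdha1. These changes rest in part on that array, and values without it are not given here. Of 17 regulators of mitochondrial biogenesis, 5, 3, 4, 6 and 6 rose (29.4%, 17.6%, 23.5%, 35.3% and 35.3%, beside the shares of all genes just given) and 0, 0, 2, 0 and 1 fell. Tfam and Tfb1m, which act in transcription of mitochondrial DNA, rose by 0.80 and 1.13 on day 4, and the coactivators Ppargc1a and Ppargc1b fell on day 3 by 0.92 and 1.06, the first also on day 5 by 0.71. Their relative Pprc1 rose on each day, by 0.83 on day 1. For Tfam, Tfb1m and Pprc1, too, day 0 replicate 4 was the lowest control.

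Other cell types changed over the same days. Of 8 macrophage markers, 5, 7, 7, 1 and 1 rose, and of 7 proliferation genes 2, 7, 7, 5 and 1 rose, on days 1 to 5. The summed linear level of the macrophage markers was 31.2 to 55.3 on the controls and 303 to 364 on day 3, and that of the proliferation genes was 8.26 to 11.4 on the controls and 41.2 to 83.8 on day 3, where the oxidative phosphorylation medians were lowest. None of the 12 proximal tubule markers rose on any day and 1 to 3 fell, with a summed level of 1146 to 1580 on the controls and 821 to 1779 on the antibody arrays. Of 6 mesangial markers, 4, 2, 1, 1 and 1 fell on days 1 to 5 and 0, 0, 1, 0 and 1 rose, with medians of -1.47, -0.80, -0.20, 0.36 and 0.30, and the lowest value was that of Itga8 on day 1 (-3.66). Of 8 endothelial markers, 4, 3, 3, 5 and 4 fell and 1 rose, on day 3, with the lowest value for Ehd3 on day 4 (-2.81). Of 8 lymphocyte markers, 2, 6, 7, 0 and 1 rose and none fell. Of 8 podocyte markers, 2, 1, 2, 3 and 3 fell and 2 rose, on day 5, and of 7 markers of the loop, distal tubule and collecting duct, 1, 2, 3, 2 and 1 fell and none rose. The part of these cell types in the subunit changes was not tested.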

How the data were processed

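RNA of glomeruli from 6 time points was measured on 18 arrays. Per the file headers, the authors made the intensity values with Agilent Feature Extraction: processed intensity is spot brightness after background subtraction and detrending, and it is not scaled across arrays. Spot means and local background intensity from the same deposited files served for an alternative correction (normexp, offset 50). The authors' deposited table of log2 values was made by steps not given in the sources used here. It has equal quantiles within days 0, 2 and 4 and within days 1, 3 and 5 separately, so it was used only within the first set or the second, as an alternative. Probe positions are those of the files, on rn4.

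Log2 processed intensity minus the array's 75th percentile was used. Control and flagged spots were left out, and the filter kept the 27837 of 41012 probes that every array of some time point measured well above background. The brightest probe stood for a gene. All 23199 genes were fitted together with limma 3.58.1 (lmFit, eBayes) in R 4.3.3, with Benjamini-Hochberg adjustment within a contrast over all genes and a threshold of 0.05. Errors are standard errors from the spread shared by all 6 time points, with n = 3 arrays per group. On data simulated for day 4 against day 0, the fit recovered 43% of genes changed by 1 log2 unit and 72% of those changed by 2. Only 100 genes were changed by each size and all others by none, with noise independent between arrays. In the data 52.2% of all genes were called on day 4, so these rates do not give the power of the reported fit. Isoform differences were tested by exact permutation over arrays (SciPy, NumPy and pandas in Python). Of the 89 genes, 88 matched a current RefSeq symbol, and 70 kept the file's name.

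Named genes follow a rule: isoform pairs, all Sdh genes, the 4 highest and 4 lowest per complex by mean change, genes called lower or never above background, and in each related list the 3 called genes with the largest change in each direction. Genes that set a contrast between probes or scan days (Ndufb3, Ndufc2, Cox6c, Atp5hl1, Ndufaf4, Ndufaf7) were named after their values were seen, and 1 gene and 1 probe sequence are not reported here. The members and lists were chosen with earlier results of these data known. Same-numbered arrays did not deviate together (8 of 27 pairs of such arrays had a correlation over 0.1), so replicate numbers were not taken as pairing. Alternatives were other scalings, background corrections, probe rules, blocks by slide or replicate number, and leaving out each array; the repaired normexp was added after seeing the data.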

Additional observations from a re-analysis of the deposited data

How the results depend on the processing

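The 3 falls held most widely: Ndufs1, Cox4i2 and Cox6a2 kept their direction on all 5 days under every alternative run, though not always past the threshold. Counts of changed genes did not. On days 1 to 5 against day 0 (63, 29, 21, 74 and 64 changed), leaving out 1 array gave 16 to 71, 10 to 39, 9 to 27, 60 to 77 and 42 to 72. Day 4 alone stayed within 1.5 times. Over all genes the same fits called 4609 to 9636, 7123 to 10858, 8369 to 11151, 9308 to 12095 and 6506 to 10560. Reference gene scaling gave 5 (1 higher), 9 (4 higher), 8 (0 higher), 17 (12 higher) and 18 (15 higher), and quantile normalization 20, 15, 12, 40 and 25. Of all genes, the first called 10303, 10620, 12222, 13025 and 10112 and the second 8138, 9703, 10023, 10957 and 8596. Normexp, whose fit failed on 2 arrays, gave 1, 1, 2, 6 and 1, beside 28, 1474, 1538, 2597 and 56 of all genes. With these arrays repaired, an alternative chosen after seeing the data, days 2 and 3 had 62 and 38, beside 14079 and 12444 of all genes. Median scaling gave 74 on day 2 and 67 on day 3, beside 12920 and 12551 of all genes. Fits of only the groups compared gave 4, 9, 6 and 13 on days 1, 2, 3 and 5, beside 3301, 8666, 8304 and 4792 of all genes. No filter gave 19 on day 2, beside 10689 of all genes. The replicate block gave 16, 11, 9 and 41 on days 1 to 4 and 57 on day 5. With slide as a fixed block there were 10, 1 and 0 on days 1, 3 and 5 (at 0, 39 genes of all tested were still called higher), and days 2 and 4 could not be fitted. Of all genes, 4094, 2902 and 111 were called with that block. The authors' value table gave 10 on day 2 and 26 on day 4, beside 8461 and 9877 of all genes. The 3 comparisons between antibody days gave 0 under each setting.

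Among all genes called, the share called higher was 48.1% on day 1 and 48.9% on day 4, against 73.6% and 71.2% with median scaling and 9.64% and 11.4% with reference gene scaling.

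Median changes moved by more than 1 SD between arrays as follows on days 1 to 5: median scaling 0.92, 0.82, 0.71, 1.23 and 1.11, quantile 0.25, 0.17, -0.040, 0.36 and 0.29, reference genes 0.11, 0.071, -0.14, 0.19 and 0.27. Normexp gave 0.16 on day 1, 0.28 on day 5 and 0.27 from day 1 to day 3. The authors' table gave 0.16 on day 2, 0.35 on day 4 and 0.19 from day 2 to day 4, where reference scaling gave 0.12. Leaving out 1 array gave 0.40 to 0.70, 0.25 to 0.53, 0.11 to 0.43, 0.62 to 0.92 and 0.49 to 0.78.

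For isoforms, leaving out 1 array gave -6.12 to -4.54 (Cox6a), -1.81 to -1.17 (Cox4i), 0.41 to 1.28 (Cox8), -0.30 to -0.15 (Atp5g1) and -0.58 to -0.33 (Atp5g2). Cox8b minus Cox8a reversed to -0.034 under normexp and -0.49 under its repair, and was 0.85 but not called in the authors' table, by the exact permutation test (adjusted p 0.381).

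On day 4, these named genes changed sign. Reference gene scaling: Atp5d -0.21, Atp5f1 -0.10, Atp5g1 -0.044, Atp5g2 -0.40, Cox6a1 -0.22, Cox8a -0.38, Ndufa1 -0.11, Ndufa4 -0.050, Ndufv1 -0.41, Sdha -0.14, Uqcr11 -0.26, Uqcrc1 -0.31. Quantile normalization: Atp5d -0.11, Atp5g1 -0.0031, Atp5g2 -0.26, Cox8a -0.13, Ndufv1 -0.12, Sdha -0.029, Uqcr11 -0.15, Ndufs4 0.19. The authors' value table: Atp5d -0.12, Atp5g1 -0.0087, Atp5g2 -0.27, Cox8a -0.14, Ndufv1 -0.12, Sdha -0.039, Uqcr11 -0.16, Ndufs4 0.19. Median scaling: Ndufs4 0.30. Both normexp settings: Cox8b -0.079. The causes were not tested. Signals of Cox6b2, Cox8b and Cox6c-ps1 lie near background, which limits them.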
